A study of Mus musculus with 17 samples.

Results

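Activator protein 1 (AP-1) is a family of transcription factors that bind DNA as pairs through a basic leucine zipper. FOS proteins pair only with a partner such as a JUN protein, whereas JUN proteins also pair with each other, and the make-up of the pair sets which genes are bound and how strongly. Many of the genes belong to the immediate early genes, which are transcribed within minutes of growth factor, cytokine, stretch or stress signals without new protein synthesis, and in vessels they are known for their rapid induction after mechanical injury and altered flow. The 9 genes examined were the FOS family (Fos, Fosb, Fosl1, Fosl2), the JUN family (Jun, Junb, Jund) and the related factors Atf3 and Maff. They were chosen by gene symbol, 9 of 13212 counted RefSeq transcript entries, and each symbol had 1 entry.

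RNA was sequenced from control vena cava and from inferior vena cava of donor mice placed over plastic cuffs into the carotid artery of recipients, explanted after 1, 6 or 24h of perfusion with arterial blood. All animals were male C57BL/6J mice, 10 to 12 weeks of age. The control vessels were not grafted, so surgery, storage, clamping, arterial pressure and contact with recipient blood were added together in the grafts. Of 17 samples, 13 libraries entered the analysis, from 4 controls, from 4 grafts perfused for 1h and from 5 perfused for 6h, and the 24h grafts were not analysed here. Heparin and anaesthesia of the recipients and removal of the anastomosis zones are described for the grafts, and the RNA was amplified by a low-input method before sequencing. The question was how AP-1 mRNA expression moved in the first hours after bypass grafting. Replicate numbers below are those of the deposited columns and could not be tied to individual animals, so p-values measure the spread between these samples.

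Controls held 8569614 to 11029712 counts each, 1h grafts 7897624 to 8359934 and 6h grafts 10171059 to 11816124. A number in the sample titles, read here as the sequencing lane, is 7 for control and 6h and 8 for 1h, so in any comparison with 1h the lane and the time cannot be told apart. Graft 1h replicate 2 and graft 6h replicate 5 stood apart from their groups in earlier work on these data and had the fewest entries with a count in their groups (10260 and 10672, where the other grafts had 11153 to 12247). Counts of members called are given with and without them. Of 11123 entries tested, 125 were higher and 1 was lower at 1h than in controls, 621 were higher and 177 lower at 6h, and 293 rose and 113 fell between 1h and 6h (edgeR, adjusted p under 0.05). Scaling to library totals alone gave 453 higher and 604 lower at 6h against control, and 171 higher and 239 lower at 6h against 1h. DESeq2 gave 1032 higher and 572 lower at 6h against control, and 537 higher and 381 lower at 6h against 1h. The smooth muscle marker Acta2 ranged from 135 to 317 CPM (counts scaled to a library of 1000000) in controls, whereas the endothelial marker Pecam1 was low in every library, at 0.134 to 6.07 CPM, although the 8 endothelial markers together reached 519 to 607 CPM in controls.

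The promoters are shown because several members are known to be switched on through cyclic AMP and AP-1 type elements close to the transcription start. RefSeq promoter windows (build GRCm38.p6, 250 bases before to 50 bases after the start) matched 8 of the 9 members. Their bases were placed on mm9, the build of the counts, by exact match. Both strands were searched for the AP-1 site TGANTCA, for the cyclic AMP type element TGACNTCA and its shorter form TGACGT, for the TATA box as TATAAA and for the CArG box of serum response factor. Of 32851 windows of 300 bases, TGANTCA was in 7.808%, TGACNTCA in 8.834%, TGACGT in 7.513%, TATAAA in 13.616% and the CArG box in 1.629%. TGACGT can overlap TGACNTCA. The 150 bases before the start are given 5′ to 3′ on the strand of the gene for 4 members that held a match, with the matches in capitals. Fos lies at chr12:86814690-86814839 (+), Jun at chr4:94718914-94719063 (-), Atf3 at chr1:193007213-193007362 (-) and the second of 3 annotated starts of Maff at chr15:79177800-79177949 (+).
Fos: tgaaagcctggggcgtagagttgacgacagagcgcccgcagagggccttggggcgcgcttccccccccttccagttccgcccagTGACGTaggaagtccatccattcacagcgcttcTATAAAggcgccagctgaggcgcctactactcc
Jun: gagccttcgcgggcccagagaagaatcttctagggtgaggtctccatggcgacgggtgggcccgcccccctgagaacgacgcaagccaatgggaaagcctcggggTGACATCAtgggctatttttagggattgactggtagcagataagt
Atf3: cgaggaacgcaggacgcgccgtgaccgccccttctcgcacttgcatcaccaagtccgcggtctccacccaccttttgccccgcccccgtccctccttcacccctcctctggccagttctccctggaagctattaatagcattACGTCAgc
Maff: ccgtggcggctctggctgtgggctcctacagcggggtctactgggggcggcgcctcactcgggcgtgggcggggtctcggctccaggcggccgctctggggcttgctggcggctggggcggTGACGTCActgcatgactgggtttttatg
In Fos, TGACGT began 66 bases and TATAAA 33 bases before the start. In Jun, TGACATCA, a form of TGACNTCA, began 45 bases before the start. In Atf3, ACGTCA, the reverse complement of TGACGT, began 8 bases before the start. In Maff, TGACGTCA, which holds both TGACNTCA and TGACGT, began 29 bases before the second start, and TGACATCA began 45 bases before the third. Junb held TATAAA at its RefSeq start, and the windows of Fosb, Fosl2, Jund and the first start of Maff held none of the 5 motifs. All distances are from RefSeq starts, which can differ from the GENCODE starts of the genes placed below. For Junb, on the minus strand, the bases before the RefSeq start end at chr8:87502648, whereas GENCODE starts the gene at chr8:87502617. The TATAAA of Junb thus lay before the GENCODE start. For Atf3, also on the minus strand, the bases before the RefSeq start end at chr1:193007213, whereas GENCODE starts the gene at chr1:193007219. Most of the ACGTCA of Atf3 thus lay after the GENCODE start. These matches describe the letters only.

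All 9 members passed the filter on low counts. At 1h, 7 of 9 rose against control and none fell, where 1.12% of all entries tested were called higher and 0.00899% lower. The libraries of the 1h and control groups did not overlap for 8 members, all higher at 1h, against 3.55% of all entries that were higher without overlap and 2.09% that were lower. DESeq2 called 8 members higher and none lower at 1h, with 2.66% and 0.414% of 10866 entries called. At 6h, all 9 were called higher than control, where 5.58% of all entries were called higher and 1.59% lower. One of them, Fosl1, passed the filter through its 6h libraries, so its call is a description of how it was kept and the count to read is that of the other 8. With any 1 control library left out, 7 or 8 of the 9 were called. No member overlapped at 6h, against 9.23% of all entries higher and 5.32% lower without overlap. DESeq2 also called all 9 higher at 6h, Fosl1 included, with 9.5% of entries called higher and 5.26% lower. The median log2 fold change of the members was 5.04 at 1h and 3.23 at 6h, and that of all entries tested was -0.04 and -0.05. Both comparisons share the control libraries. In bulk RNA, fewer cells of a type and less RNA per cell cannot be told apart.

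**Figure D1:**
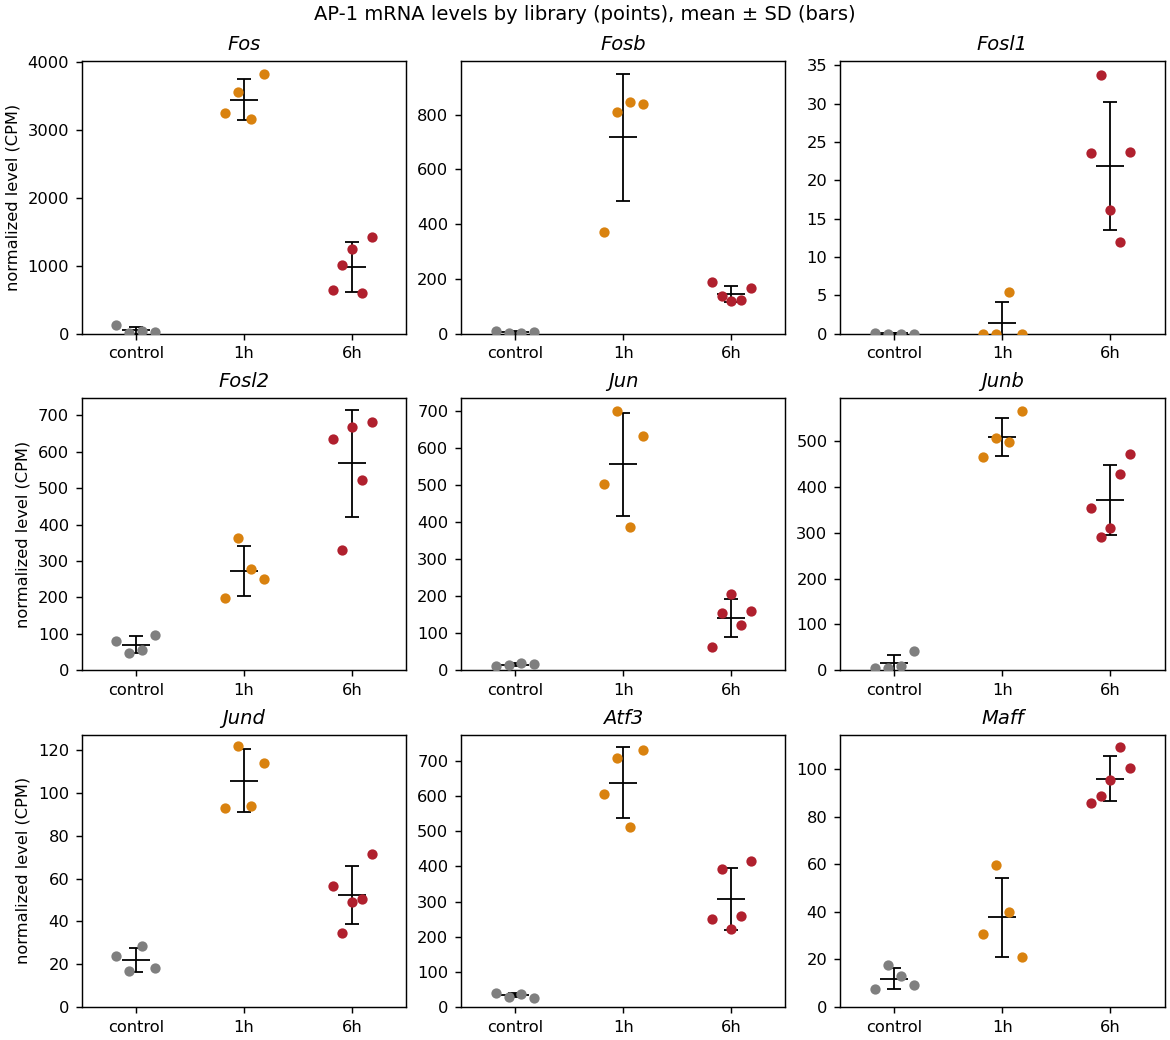
Normalized mRNA level (CPM, y axis from 0, a separate scale for each gene) of the 9 members in control vena cava and in grafts at 1h and 6h. Points are libraries, bars are mean ± SD (n = 4, 4 and 5); Fos, Fosb, Jun, Jund and Atf3 were lower in every 6h library than in every 1h library, Maff and Fosl1 were higher, and Fosl2 and Junb overlapped.

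Fos (NM_010234, chr12:86814840-86818223 on mm9, 4 exons) encodes c-FOS, the classic immediate early partner of JUN. Its normalized level, in CPM, was 121, 14.7, 34.7 and 18.6 in the 4 control vena cavae. At 1h it was 3244, 3565, 3155 and 3823, and at 6h 635, 1016, 1252, 594 and 1418. The 3 groups were fully separate, with every 1h library above every 6h library and every 6h library above every control. The mean of 3447 ± 306 CPM at 1h (SD, n = 4) stood against 47.3 ± 50.1 in controls (n = 4), and the fitted rise was 72.8-fold (log2 fold change 6.19, SE 0.64, adjusted p = 4.15e-05, edgeR). At 6h the mean was 983 ± 366 (n = 5), still 20.8-fold above control (4.38, SE 0.58, adjusted p = 0.000128). Control replicate 1 held more than the other controls, and without it the log2 fold changes were 7.26 at 1h and 5.44 at 6h.

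Fosb (NM_008036, chr7:19888070-19895394, minus strand, 4 exons) encodes FOSB, which also pairs with JUN proteins and whose short form persists in other tissues after repeated stimulation. Its level was 8.90, 0.0936, 0.536 and 5.62 CPM in controls, the lower pair resting on few counts (1 count in replicate 2). It was 370, 811, 847 and 839 CPM at 1h, and 187, 136, 119, 120.7 and 165 at 6h. Graft 1h replicate 1 was below the other 1h libraries yet above every 6h library. Fosb had the largest called rise of the members at 1h, 187-fold (log2 fold change 7.55, SE 0.92, adjusted p = 0.000199), and it was 38.0-fold above control at 6h (5.25, SE 0.82, adjusted p = 0.000667). Without control replicate 1 the log2 fold changes were 8.40 and 6.08. Fosb splice forms were not counted apart.

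Fosl1 (NM_010235, chr19:5447703-5455945, 4 exons) encodes FRA-1, a FOS protein without the strong activation domain of c-FOS that is itself known as a delayed AP-1 target. It had raw counts of 1, 0, 0 and 0 in controls and 0, 0, 50 and 0 at 1h, so graft 1h replicate 3 alone held reads at that time. At 6h it had 236, 360, 130, 113 and 188 counts, or 23.5, 33.8, 16.2, 12.0 and 23.7 CPM, and these libraries carried it through the filter. Summed over groups, 1027 counts at 6h against 1 in controls gave a ratio of normalized counts of 982 (95% counting interval 176 to 38817). The fit called it higher at 6h (adjusted p = 0.019), but the adjusted p was 0.0545 to 0.0599 with any 1 control library left out. At 1h the ratio was 63.6 (10.9 to 2560), from 50 counts against 1, and it was not called (adjusted p = 0.379). Without graft 1h replicate 3 no 1h library held a Fosl1 read (adjusted p = 0.968). PCR copies carried no mark, so intervals cover only the error of counting. Counting was without strand, and Fosl1 overlaps Ccdc85b on the opposite strand by 2783 bases.

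Fosl2 (NM_008037, chr5:32438845-32460204, 4 exons) encodes FRA-2, the other FOS protein without a strong activation domain. Controls already held 81.4, 46.8, 55.7 and 96.6 CPM. It reached 199, 363, 278 and 250.04 CPM at 1h, and 636, 331, 669, 522 and 682 at 6h. Every graft was above every control, whereas 6h replicate 2 lay below 1h replicate 2, so the graft groups overlapped. Fosl2 rose 3.89-fold at 1h (log2 fold change 1.96, SE 0.30, adjusted p = 0.00181) and 8.10-fold at 6h (3.02, SE 0.31, adjusted p = 1.09e-05).

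Jun (NM_010591, chr4:94715725-94718913, minus strand, 1 exon) encodes c-JUN, the main transactivating partner of FOS proteins, which also acts on its own promoter. Controls were close together at 10.8, 14.04, 19.6 and 16.5 CPM. Grafts at 1h held 502, 701, 388 and 633 CPM, and grafts at 6h 63.7, 155, 205, 122 and 160.0. The 3 groups did not overlap, and 6h replicate 1 was the lowest of the grafts. Jun rose 36.5-fold at 1h (log2 fold change 5.19, SE 0.39, adjusted p = 6.63e-07) and 9.26-fold at 6h (3.21, SE 0.34, adjusted p = 1.92e-05). Jun overlaps the transcript BC042782 on the opposite strand by 689 bases.

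Junb (NM_008416, chr8:87500811-87502617, minus strand, 1 exon) encodes JUNB, a weaker activator that can restrain c-JUN at some genes. It was at 4.31, 5.43, 10.3 and 41.6 CPM in controls, replicate 4 being far above the rest. It was 466, 507, 499.7 and 567 CPM at 1h, and 355, 291, 312, 429 and 473 at 6h. The lowest graft was above the highest control, and the 1h and 6h grafts overlapped only where the highest 6h library passed the lowest 1h library. Junb rose 32.95-fold at 1h (log2 fold change 5.04, SE 0.61, adjusted p = 0.000191) and 24.0-fold at 6h (4.59, SE 0.59, adjusted p = 0.000105). Without control replicate 4 the log2 fold changes were 6.29 and 5.81.

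Jund (NM_010592, chr8:73221638-73224515, 1 exon) encodes JUND, the JUN protein known for constant expression in resting cells. Controls held 23.9, 16.9, 28.7 and 18.4 CPM, grafts at 1h 93.2, 122, 93.9 and 114, and grafts at 6h 56.3, 34.4, 49.1, 50.5 and 71.6. The groups did not overlap at either time. Jund rose 4.82-fold at 1h (log2 fold change 2.27, SE 0.36, adjusted p = 0.00215). At 6h it was 2.39-fold above control (1.25, SE 0.33, adjusted p = 0.0304), the smallest called rise of the members at that time. That call was lost with library-total scaling (0.84, adjusted p = 0.11), with upper-quartile scaling (1.13, adjusted p = 0.0512), in the fit of the compared groups alone (1.26, adjusted p = 0.0996), without control replicate 1, 2 or 4 (1.29, 1.16 and 1.18), without 6h replicate 1 or 5 (1.23 and 1.12), and without both libraries that stood apart (1.12, adjusted p = 0.072). Jund overlaps Gm11175 on the opposite strand by 543 bases.

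Atf3 (NM_007498, chr1:192994175-193007219, minus strand, 4 exons) encodes a stress-induced zipper factor that pairs with JUN proteins and often represses. Controls were at 38.8, 28.8, 36.3 and 26.8 CPM. Grafts were at 605, 708, 511 and 731 CPM at 1h, and at 250.02, 392, 223, 259 and 414 at 6h. Its groups were separate and its controls varied little, with a mean of 32.7 ± 5.80 CPM (SD, n = 4). Atf3 rose 19.5-fold at 1h (log2 fold change 4.29, SE 0.28, adjusted p = 1.87e-07) and 9.41-fold at 6h (3.23, SE 0.26, adjusted p = 1.08e-06), the smallest adjusted p of the members in both comparisons.

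Maff (NM_010755, chr15:79177971-79189502, 3 exons) encodes a small MAF protein, which has no activation domain and pairs with other zipper factors. Controls were at 7.61, 17.7, 13.1 and 9.27 CPM and 1h grafts at 30.4, 59.7, 40.0 and 20.8, so that the lowest 1h graft was only a little above the highest control. At 6h the grafts were close together at 85.8, 88.5, 95.3, 109 and 100.3 CPM. Maff was not called at 1h by edgeR (log2 fold change 1.66, SE 0.42, adjusted p = 0.082) but was by DESeq2 (adjusted p = 0.00183) and by edgeR without 1h replicate 4 (1.92, adjusted p = 0.0428). At 6h it rose 8.04-fold (3.01, SE 0.43, adjusted p = 0.000269).

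**Figure D2:**
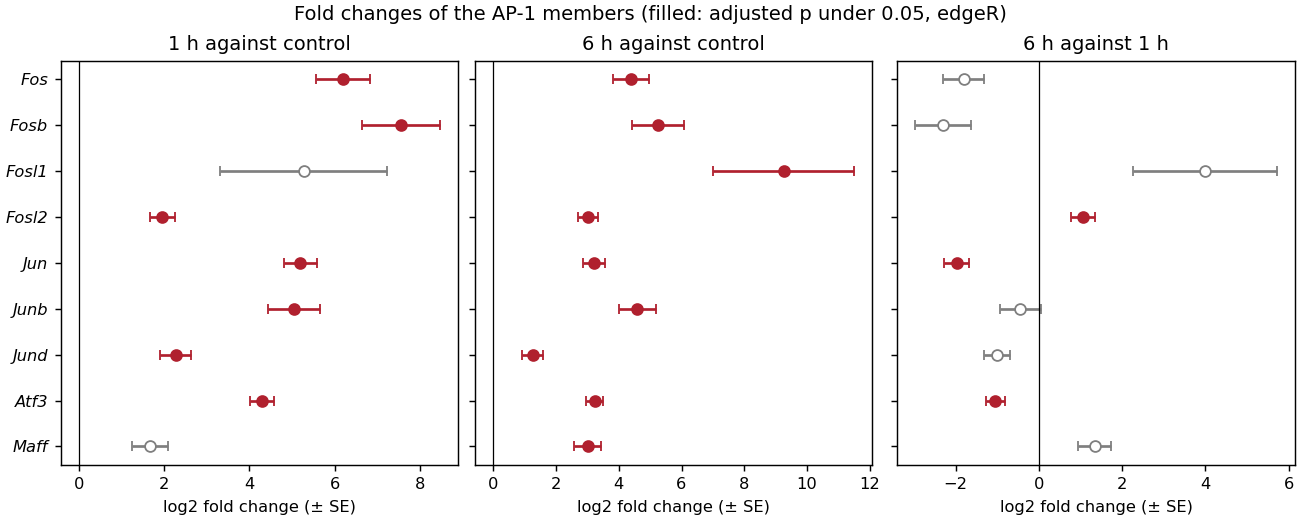
Log2 fold change (x axis) of each member in the 3 comparisons, with bars of 1 SE, from the edgeR fit of 13 libraries; the values of Fosl1 rest on 1 count in controls and depend on the prior count. Filled symbols passed an adjusted p of 0.05: 7 members at 1h, 9 at 6h, and between 1h and 6h Fosl2 (1.06), Jun (-1.98) and Atf3 (-1.05).

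Between 1h and 6h the members moved in both directions. Jun fell to 0.254 of its 1h level (log2 fold change -1.98, SE 0.31, adjusted p = 0.00171) and Atf3 to 0.482 of its own (-1.05, SE 0.23, adjusted p = 0.0188). Fosl2 rose 2.08-fold (1.06, SE 0.28, adjusted p = 0.0497), although the groups overlapped. These 2 lower and 1 higher calls stood against 1.02% and 2.63% of all entries. Libraries did not overlap for 5 members that were lower at 6h (Fos, Fosb, Jun, Jund, Atf3), where 3.13% of all entries were. Fosl1 and Maff were the 2 members higher at 6h without overlap, where 6.49% of all entries were. Fosl1 was kept by the filter through its 6h libraries, so its separation describes how it was kept. Of the members without overlap, Fos was at -1.81 (SE 0.49, adjusted p = 0.0526) and Fosb at -2.30 (SE 0.67, adjusted p = 0.0762). Like them, Jund at -1.01 (SE 0.32, adjusted p = 0.111) and Maff at 1.34 (SE 0.40, adjusted p = 0.0835) were short of the threshold in this fit. Junb was at -0.45 (SE 0.49, adjusted p = 0.75). DESeq2 called 2 members higher and 5 lower, with 4.94% and 3.51% of 10866 entries called.

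The calls between 1h and 6h depended on the settings more than those against control. The Fosl2 call stayed in 4 of 18 alternatives, with adjusted p from 0.0234 to 0.166, and leaving out any of 1h replicates 1, 3 and 4 or of 6h replicates 1, 3, 4 and 5 ended it. The Jun call stayed in 18 of 18. Fos was called lower in 7 of 18 alternatives, namely DESeq2 (adjusted p = 0.00502), DESeq2 size factors in edgeR (0.0469), upper-quartile scaling (0.0478), library totals (0.0181), no filter (0.0494), the filter of 50 counts (0.046) and the fit of the compared groups alone (0.0033). Atf3 had an adjusted p of 0.0504 without 1h replicate 2, 0.0611 without 1h replicate 4 and 0.0506 without 6h replicate 3. Without 1h replicate 3, Fosl1 was called higher at 6h than at 1h (adjusted p = 0.0133), which describes how it was kept, through its 6h libraries. The number of members called was 3, and it was 1 without 1h replicate 4 or without 6h replicate 3, and 2 without both libraries that stood apart. Without those 2 libraries, 7 members were called at 1h and 8 at 6h, and over all entries that fit called 108 at 1h, 746 at 6h and 276 between 1h and 6h.

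Levels of different genes were compared per kb of transcript, taking the longest GENCODE M1 transcript of each gene. That length can differ from the length of the RefSeq entry that was counted, which bears on the order and on the family shares below. In controls the order of mean CPM per kb was Fos (22.5 ± 23.7, SD, n = 4), Atf3 (16.5 ± 2.92), Fosl2 (12.0 ± 3.92), Junb (8.53 ± 9.78), Jund (7.63 ± 1.88), Maff (6.16 ± 2.32), Jun (4.78 ± 1.17), Fosb (1.01 ± 1.13) and Fosl1 (0.0134 ± 0.0269). Ranges of neighbours in this order overlapped down to Jun, and Fosl1 overlapped the range of Fosb, so resting vena cava had no member clearly above the rest. At 1h Fos led with 1635 ± 145 CPM per kb (n = 4), above every other member in every library, followed by Atf3 (322 ± 50.9), Junb (282 ± 23.2), Fosb (191 ± 61.8) and Jun (174 ± 43.7). Ranges of Atf3 and Junb overlapped, as did those of Fosb and Jun. Below them were Fosl2 (46.6 ± 11.7), Jund (36.8 ± 5.07), Maff (19.5 ± 8.60) and Fosl1 (0.799 ± 1.60), with overlap only between Fosl2 and Jund. At 6h Fos was still first (466 ± 174, n = 5), then Junb (206 ± 42.8), Atf3 (155 ± 44.6), Fosl2 (97.0 ± 25.1), Maff (49.6 ± 4.90), Jun (44.3 ± 16.5), Fosb (38.8 ± 7.897), Jund (18.2 ± 4.66) and Fosl1 (12.8 ± 4.89). The ranges of neighbours from Junb to Fosb overlapped, as did those of Jund and Fosl1, whereas Fos stood above Junb and Fosb above Jund. Jun, which exceeded Maff in every library at 1h, overlapped it at 6h.

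Within the FOS family, the share of the summed CPM per kb held by Fos was 55.1 ± 19.6% in controls (SD, n = 4), 87.4 ± 3.32% at 1h (n = 4) and 74.4 ± 7.79% at 6h (n = 5). Fosl2 took 42.5 ± 18.9%, 2.48 ± 0.539% and 16.6 ± 5.64%. Thus the FOS mRNA pool of resting vessels was mainly Fos and Fosl2, that at 1h was mainly Fos, and at 6h Fosl2 again held 9.50 to 22.9%. Fosb held 2.38 ± 2.53%, 10.1 ± 2.93% and 6.78 ± 2.49%, and Fosl1 reached 2.17 ± 0.895% at 6h. Within the JUN family, Jund held 41.8 ± 16.9% in controls, 7.46 ± 0.297% at 1h and 6.76 ± 1.137% at 6h. Junb held 33.1 ± 22.7%, 57.6 ± 5.14% and 76.5 ± 6.22%, and Jun 25.1 ± 7.73%, 35.0 ± 5.08% and 16.7 ± 6.83%. In control replicate 4 Junb already held 66.6%, its highest share in a control. These shares are of mRNA and say nothing of protein.

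**Figure D3:**
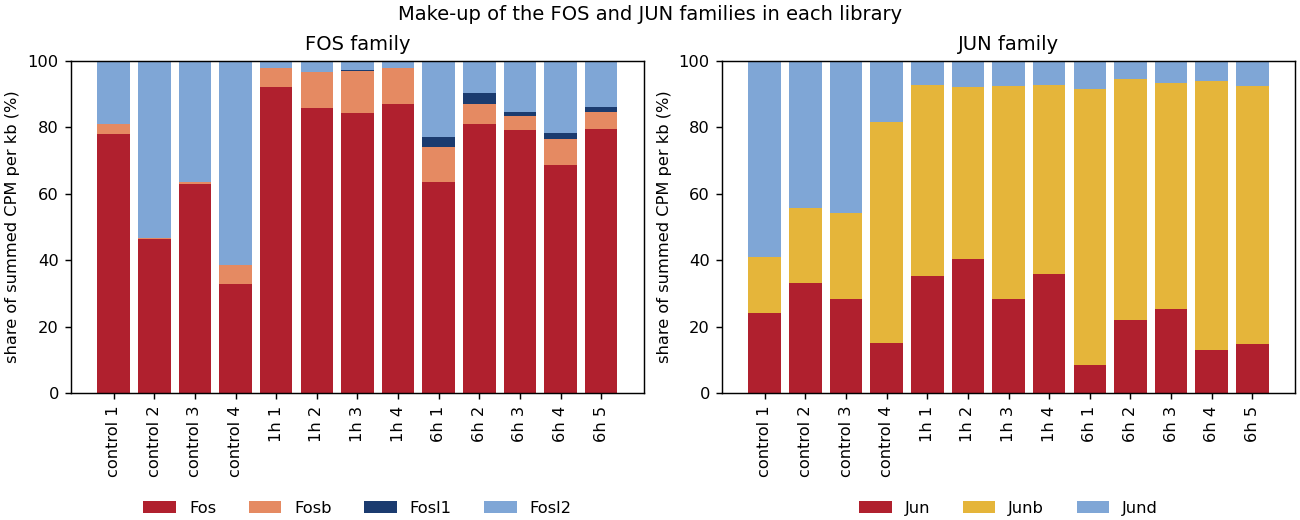
Share of the summed CPM per kb (y axis, %) held by each gene of the FOS family (left) and the JUN family (right) in each of the 13 libraries (bars, named by group and replicate). Fos filled 84.4 to 92.1% of the FOS bars at 1h, and Junb filled 67.9 to 83.3% of the JUN bars at 6h.

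Ratios of a pair of members within a library do not depend on scaling. Over 6 ratios and 3 comparisons, 18 exact 2-sided permutation tests were made, in which p could go no lower than 0.0286 with 4 libraries in each group and 0.00794 with 5 and 4. The log2 ratio of Fosl2 to Fos was -0.58, 1.67, 0.68 and 2.37 in controls, -4.03, -3.29, -3.50 and -3.93 at 1h, and 0.00, -1.62, -0.90, -0.19 and -1.06 at 6h. It was thus lowest in all 1h grafts and in between in most 6h grafts. The rise from 1h to 6h was 2.94 (exact permutation p = 0.00794, the smallest possible, adjusted p = 0.0476). With 5 added to each count in place of 0.5 the rise was again 2.94 (adjusted p = 0.0571). With any 1 library of the compared groups left out it was 2.75 to 3.15 (adjusted p = 0.0571 to 0.0714). Fewer libraries raise the smallest possible p, and the adjustment is shared by all 18 tests. The loss of the call in these alternatives therefore does not measure how steady the rise was. The difference in Fosl2 to Fos between 1h and control was -4.73, at the smallest possible exact permutation p of 0.0286 (adjusted p = 0.0571). The log2 ratio of Fosl1 to Fos was higher at 6h than in controls by 3.60 and than at 1h by 8.70 (each exact permutation p = 0.00794, adjusted p = 0.0476). Fosl1 was kept by the filter through its 6h libraries, so these 2 differences and their p-values describe how it was kept and are no test of a rise. Both of these rest on libraries with 0 counts of Fosl1, to which 0.5 was added. With 5 added in its place the difference from controls was 0.67 (adjusted p = 0.384) and that from 1h was 6.22 (adjusted p = 0.0571), so the sizes are set by the added count. Leaving out 1 library ended the first call for every library but control replicate 4 (adjusted p up to 0.0643) and the second for every library (up to 0.0714).

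The log2 ratio of Junb to Jun was -1.32, -1.36, -0.93 and 1.33 in controls, -0.11, -0.47, 0.37 and -0.16 at 1h, and 2.48, 0.91, 0.60 and 1.81 in the first 4 grafts at 6h, with 1.56 in the last. Every 6h graft was above every 1h graft, by a mean of 1.57 (exact permutation p = 0.0159, adjusted p = 0.0571). The log2 ratio of Jund to Jun was lower at 1h than in controls (difference -2.89, exact permutation p = 0.0286, adjusted p = 0.0571). The log2 ratio of Atf3 to Fos varied little at 1h, from -2.62 to -2.33, and more in controls, from -1.64 to 0.97. At 6h it was -1.64 ± 0.52 (SD, n = 5). The 3 differences in this ratio had adjusted exact permutation p-values of 0.0571, 0.0595 and 0.0595. The log2 ratio of Fosb to Fos was -4.52 ± 2.24 in controls (n = 4), -2.34 ± 0.54 at 1h (n = 4) and -2.69 ± 0.66 at 6h (n = 5), with no adjusted p below 0.152. Control replicate 4 bore on this, since without it the difference from control was 3.11 in place of 2.18 at 1h, and 2.76 in place of 1.83 at 6h (each adjusted exact permutation p = 0.0429). Without it, Junb to Jun was also above control, by 1.11 at 1h and 2.68 at 6h (each adjusted p = 0.0429, exact permutation). With it the differences were 0.48 (adjusted p = 0.543) and 2.04 (adjusted p = 0.0571). In all, 8 ratio values gained the call without that library, at the same adjusted p. Among them, Jund to Jun at 1h hardly moved (-3.01 in place of -2.89) and Atf3 to Fos at 1h became smaller (-2.24 in place of -2.42). The gained calls thus also reflect the adjustment shared over the ratios.

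**Figure D4:**
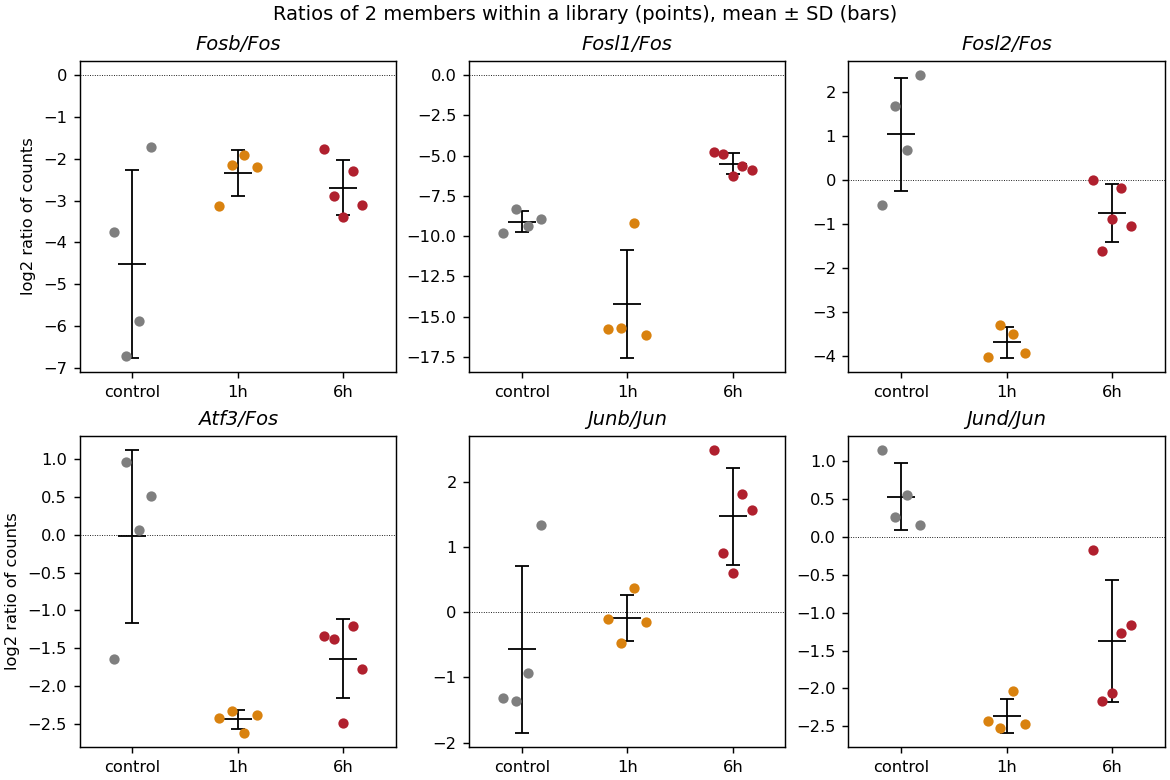
Log2 ratio of the counts of 2 members within each library (y axis), a separate scale for each of 6 ratios, with points for libraries and bars for mean ± SD (n = 4, 4 and 5). Fosl2 to Fos averaged -3.69 at 1h and -0.75 at 6h, and Junb to Jun -0.09 at 1h and 1.47 at 6h; the 1h points of Fosl1 to Fos near the bottom are libraries with 0 counts of Fosl1.

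The other genes of the pathway came from lists set without regard to direction, though with earlier results of these data known. Of 16 tested AP-1 partners and other zipper factors, 1 rose at 1h, and 4 rose and 1 fell at 6h, with median log2 fold changes of 0.63 and 0.97. Nfil3, a repressor with a basic leucine zipper, held 1.74 to 9.35 CPM in control vessels, 38.1 to 149.6 after 1h (log2 fold change 4.25, SE 0.55, adjusted p = 0.000363) and 125 to 299 after 6h (5.11, SE 0.56, adjusted p = 2.45e-05). Bach1, a partner of small MAF proteins, was at 21.3 to 44.0 CPM in controls and 22.9 to 54.7 at 1h, and rose to 152 to 276 at 6h (2.62, SE 0.37, adjusted p = 0.00028). Mafk, another small MAF gene, rose at 6h by 2.51 (SE 0.41, adjusted p = 0.000979). Maf, a large MAF factor, was the gene that fell at 6h (-1.11, SE 0.29, adjusted p = 0.029). Of 19 tested kinases and factors that induce or activate AP-1, none was called at 1h, 2 rose at 6h, and the medians were -0.00 and 0.40. Between 1h and 6h, 2 partners (Bach1 and Nfe2l2) and 1 kinase (Map2k3) rose and none fell, with medians of 0.78 and 0.60. Of all entries tested, 1.12% were called higher at 1h, 5.58% at 6h and 2.63% between them, with medians of -0.04, -0.05 and 0.0. At 6h, 1.59% were called lower. The counts of both lists are small and were not tested against these shares. The 2 kinases that rose at 6h were Map2k3, a kinase upstream of p38, at 3.48 (SE 0.44, adjusted p = 9.14e-05), and Map3k8, a kinase upstream of ERK, at 4.58 (SE 0.89, adjusted p = 0.00393), which was 5.32 without control replicate 4.

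Of 23 tested genes known as AP-1 targets, 7 rose at 1h, 16 rose at 6h and 11 rose between 1h and 6h, and none fell. Their median log2 fold change was 1.07 at 1h, 5.35 at 6h and 3.23 between them. Among these genes, Ereg, Sphk1, Il11 and Areg held at most 0.107 CPM in controls and at most 7.92 at 1h. Like Fosl1, they were kept by the filter through their 6h libraries. Their calls at 6h, and that of Ereg between 1h and 6h, describe how they were kept, and the medians include them. Of all entries tested, 1.12%, 5.58% and 2.63% were called higher in these comparisons, with medians of -0.04, -0.05 and 0.0. Il6, an inflammatory cytokine, was at 1.22 to 2.47 CPM in controls, while 1h grafts held 325 to 619 and 6h grafts 4405 to 7027. Il6 rose by 7.99 on the log2 scale from control to 1h (SE 0.35, adjusted p = 2.52e-09) and by another 3.51 from 1h to 6h (SE 0.27, adjusted p = 3.27e-06). Ccl2, a monocyte attractant, was at 22.9 to 40.1, 505 to 1018 and 12503 to 24945 CPM. Ptgs2, the inducible prostaglandin synthase, was at 0.749 to 7.18, 83.0 to 326 and 1583 to 2461 CPM. The metallothionein Mt1 was at 464 to 720, 1951 to 5674 and 12238 to 27502 CPM. In contrast to Fos, Jun and Atf3, these 4 targets were higher in every 6h library than in every 1h library. They are regulated by other factors as well, and no binding was measured. 

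Of 18 other immediate early genes tested, 13 rose at 1h and 15 at 6h, and between 1h and 6h 2 rose and 2 fell, with medians of 3.25, 3.06 and 0.20. Of all entries tested, 1.12% were called higher at 1h and 5.58% at 6h, and between 1h and 6h 2.63% were called higher and 1.02% lower. Zfp36, which encodes an mRNA decay factor, was at 129 to 345 CPM in controls, while 1h grafts held 5007 to 7994 and 6h grafts 2165 to 2841, and fell between 1h and 6h (-1.29, SE 0.27, adjusted p = 0.0116). Btg2, an antiproliferative gene, was at 181 to 257, 2133 to 2987 and 1189 to 1388 CPM and fell by 1.03 on the log2 scale (SE 0.17, adjusted p = 0.00345). Ier3, a stress-induced survival gene, rose further, from 582 to 741 CPM at 1h to 1553 to 2218 at 6h (1.59, SE 0.18, adjusted p = 0.000143).

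Genes with the most similar pattern were ranked by Pearson's r of log2 CPM over the 13 libraries among 8778 genes, which describes libraries that share group, lane and scaling. For Fos they were Zfp36 (0.977), Atf3 (0.976) and Btg2 (0.967), and for Jun they were Atf3 (0.961), Btg2 (0.957) and Zfp36 (0.943). For Fosb they began with Zfp36 (0.982) and Egr1 (0.966), for Atf3 with Btg2 (0.981), and for Jund with Ppp1r10 (0.942) and Jun (0.934). The members that were highest at 6h had other neighbours. For Fosl1 these were Csf3 (0.979), Eif2s2 (0.963) and Sdc4 (0.950), for Fosl2 H3f3b (0.979), Sat1 (0.969) and Litaf (0.968), and for Maff Mt2 (0.974), Mt1 (0.967) and Cebpb (0.966). For Junb they were Klf6 (0.974), Il1b (0.955) and the platelet gene Treml1 (0.950). Between members, r was 0.942 for Fos and Jun, 0.898 for Fosl2 and Maff, 0.825 for Fosl1 and Maff, and 0.361 for Fos and Fosl1. Fosl1 had 0 counts in most control and 1h libraries, where its log2 CPM is set by the prior count. All r values of Fosl1 thus mostly describe the 6h libraries, through which it was kept, against libraries without reads.

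Several markers of neutrophils and platelets rose against control, as most members did. Between 1h and 6h the median log2 fold change was 2.33 for neutrophil and 0.89 for platelet markers, and -1.01 for the members. That last median covers members that moved in both directions, with 1 called higher and 2 called lower. Of all entries tested, 1.12% were called higher at 1h and 5.58% at 6h, with medians of -0.04 and -0.05. Between 1h and 6h, 2.63% were called higher and 1.02% lower. Of 9 tested neutrophil markers, 6 rose at 1h and 6 at 6h, and the summed level of the list was 16.9 to 33.6 CPM in controls, 1137 to 9790 in grafts perfused for 1h and 3308 to 60102 in those perfused for 6h. S100a8 held 1.78 to 10.4 CPM in controls, 414 to 4107 in 1h grafts and 979.6 to 18391 in 6h grafts. Of 8 tested platelet markers, 3 rose at 1h and 6 at 6h, with sums of 210 to 344, 797 to 2651 and 1337 to 9762 CPM. Of 7 tested monocyte and macrophage markers, 1 rose at each time, with sums of 1872 to 3461, 2023 to 3499 and 4521 to 13012 CPM. The median log2 fold change of that list was -0.10 at 1h and -0.57 at 6h, opposite in sign to the higher sum at 6h, whereas the median was 6.94 and 9.53 for neutrophil and 3.57 and 4.46 for platelet markers. No marker of smooth muscle (6 tested), fat cells (4), cardiac muscle (6) or lymphocytes (6) was called against control, 1 of 8 endothelial markers rose at 6h, and of 6 fibroblast markers 1 rose at 1h and 1 fell at 6h. Between 1h and 6h, 2 neutrophil markers, 1 monocyte and macrophage marker and 1 of 4 fat cell markers rose, 2 smooth muscle and 3 fibroblast markers fell, and no platelet or endothelial marker was called. The part of these cells in the AP-1 results was not tested.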

How the data were processed

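Per the labels and the methods, libraries were made with a low-input amplification kit and read as single ends. Read quality was checked by the authors in FastQC 0.11.5, gsnap placed the reads on mm9, and HTSeq 0.5.4p3 counted them without strand. The deposited counts are raw counts per RefSeq entry, not pooled by the authors, who also deposited normalized values and DESeq2 1.14.1 comparisons (fold changes and p-values), not used here. Columns were given to groups by name. Columns named 24h outnumbered the 24h samples (5 against 4) and were not used, and 95 columns of per-sample values, 30 of them named 24h, were left out in all. The counts hold 13212 entries, of which 886 lacked a symbol and 803 were filled in from RefSeq.

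The fit used edgeR 4.0.16 under R 4.3.3: filterByExpr (11123 entries kept), TMM, a robust quasi-likelihood fit of 13 libraries by group (biological coefficient of variation 1.03) and Benjamini-Hochberg adjustment over all entries tested. CPM are TMM-normalized counts scaled to a library of 1000000. The SE is the log2 fold change divided by the root of the F statistic, an approximation. Counts of 1 to 3 in a group give a ratio with a 95% interval. Correlations used log2 CPM with a prior count of 2 and genes with a mean count of at least 50.

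The members and lists were chosen with earlier results of these data known. Named genes were the 9 members, up to 4 called genes per list and comparison with the smallest p, the 3 nearest genes by correlation and the defining markers. Genes were placed on mm9 with GENCODE M1. Alternatives were DESeq2 1.42.0, other scalings, filters and fits, summed entries and each library left out. After the data were seen, a fit without both libraries that stood apart (1h replicate 2 and 6h replicate 5) was added. The fit was tested on simulated data.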

Additional observations from a re-analysis of the deposited data

Results flagged for a closer look

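Within groups, 4 of 27 sets of values (9 members in 3 groups) held a library far from the others by Dixon's test. Chance gives about 1 in 20 where values vary freely, which does not hold for the sets of Fosl1, where 1 library had reads and any count in it would be picked out. Junb was at 41.6 CPM in control replicate 4, above the other controls. Fosb was at 370 CPM in graft 1h replicate 1, below the other grafts of that time. Fosl1 was at 0.0917 CPM (1 count) in control replicate 1 and at 5.46 CPM (50 counts) in graft 1h replicate 3, where the other libraries of each group had 0 counts.

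By edgeR's test of 6h against 1h, the effect of grafting differed for Fosl2 (log2 difference 1.06, adjusted p = 0.0497, larger at 6h), Jun (-1.98, adjusted p = 0.00171, smaller at 6h) and Atf3 (-1.05, adjusted p = 0.0188, smaller at 6h). The Fosl2 call stayed in 4 of 18 alternatives, that of Atf3 in 15 and that of Jun in 18.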

How the results depend on the processing

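Against control, Fos, Fosb, Fosl2, Jun, Junb and Atf3 kept their direction and call at 1h and 6h in all alternatives run, as did Jund at 1h and Maff at 6h. DESeq2 called 334 entries at 1h (edgeR 126), 1604 at 6h (798) and 918 between 1h and 6h (406), where it called 7 members in place of 3 and library totals called 5. With 1 library left out, the count between 1h and 6h was 228 to 325 entries and 1 to 3 members. Fosl1 at 1h ranged from -1.47, without graft 1h replicate 3, to 6.73, fitted values that depend on the prior count since groups held 0 or 1 counts. Over all alternatives, members gave 428 values on the same side of the threshold, 30 that lost and 17 that gained the call, and list genes 593, 10 and 0. Library totals moved the median of all entries to -0.14 at 1h, -0.46 at 6h and -0.31 between them. Ratios lost the call in 29 of their values, including all 3 called ratios with 5 counts added, and gained it in 8, each without control replicate 4. The smallest possible p and the adjustment shared over the ratios bear on these changes of call, as well as the size of the difference. No paired analysis was possible because the columns carry no animal number that the groups share. Depth limits Fosl1 most, with 1 count over the controls.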
